A study of Mus musculus with 16 samples.

Results

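The transcription factors that give intestinal epithelium its identity were followed as 10 genes, Cdx1, Cdx2, Hnf4a, Hnf4g, Gata4, Gata6, Klf4, Klf5, Elf3 and Sox9, chosen by name from the 24421 genes of a single-cell RNA-seq experiment. All 10 were listed and detected, with 294 to 3724 unique molecular identifiers (UMIs, each a captured transcript) over 2597 cells. The cells came from crypt isolates of small intestine of outbred, untreated mice at postnatal day 16. The isolates were dissociated with trypsin and collagenase for about 1 h. Crypts were isolated by the organoid protocol of the paper, which takes the upper, proximal part of the small intestine (duodenum and jejunum). One genotype was wild type (WT). The other was ROBO-Crainbow (ROBO), ROBO(+/−):VilCre(+/−), which carries 1 copy each of a Cre-activated transgene and of a Cre driven by the Villin promoter, so that recombination takes place in the gut epithelium from fetal life. After recombination a cell expresses human RSPO3, or 1 of 2 fusions of PTPRK to RSPO3, each with its own fluorescent protein; RSPO3 is a secreted ligand that strengthens Wnt signalling at the crypt base. The human transgene was not analysed here, and the methods name no sort by fluorescence, so which ROBO cells express which form is not known. The labels give 8 samples per genotype and 2 capture cartridges per genotype, and the cells of each genotype stand pooled in 1 matrix with running numbers as cell names.

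Cell names could therefore not be traced to samples, and shared barcodes could not be counted. With 1 pool of cells per genotype the design has no replicates, and no test was run. A level below is the number of UMIs of a gene per 10000 UMIs of the cells named, and intervals are 95% intervals for counting error only, which leave out the spread between mice, cartridges and libraries. A difference is called higher or lower where its interval leaves out a log2 ratio of 0. The question was how the factors are distributed from crypt to villus, and whether that distribution differs between WT and ROBO epithelium.

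Cdx1 and Cdx2 are caudal-type homeobox factors that specify the intestine and repress gastric fate. Hnf4a and Hnf4g are nuclear receptors that together keep the brush border and lipid-handling genes of enterocytes active. Gata4 marks and maintains the proximal small intestine, and Gata6 acts along the whole gut and in crypt cells. Klf5 is a Krüppel-like factor of proliferating crypt cells, while its relative Klf4 is known from post-mitotic villus and goblet cells. Elf3 is an epithelial ETS factor needed for enterocyte and goblet cell maturation, and Sox9 is a Wnt-responsive factor of the crypt base, of Paneth cells and of secretory precursors. In the adult gut, cells leave the crypt base, divide as transiently amplifying (TA) cells and mature while they move up the villus. At postnatal day 16 the mouse gut is still on a milk diet and the switch to solid food, weaning, is beginning.

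The promoters of 4 of the 10 genes had a sequence in the RefSeq table used (GRCm38.p6), each from 250 bases before to 50 bases after a start site, 5′ to 3′ on the gene's strand. They are shown because Klf4 was higher in top enterocyte-like cells, Elf3 and Klf4 moved with immediate-early genes, Cdx2 was lower in ROBO, and Hnf4a is paired below with Hnf4g. Capitals mark a match to a consensus on either strand. Klf4 lies on the minus strand of chromosome 4, and its window is chr4:55532426-55532725. Elf3, on the minus strand of chromosome 1, has the window chr1:135258423-135258722. Cdx2, on the minus strand of chromosome 5, has the window chr5:147307200-147307499, and the upstream start of Hnf4a, on the plus strand of chromosome 2, has the window chr2:163506607-163506906.
Klf4: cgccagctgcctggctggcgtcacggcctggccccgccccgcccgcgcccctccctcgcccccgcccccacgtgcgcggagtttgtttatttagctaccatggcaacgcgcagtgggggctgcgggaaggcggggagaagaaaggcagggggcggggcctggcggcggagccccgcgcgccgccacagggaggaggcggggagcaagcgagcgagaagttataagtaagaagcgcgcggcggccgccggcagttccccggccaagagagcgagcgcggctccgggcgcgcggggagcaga
Elf3: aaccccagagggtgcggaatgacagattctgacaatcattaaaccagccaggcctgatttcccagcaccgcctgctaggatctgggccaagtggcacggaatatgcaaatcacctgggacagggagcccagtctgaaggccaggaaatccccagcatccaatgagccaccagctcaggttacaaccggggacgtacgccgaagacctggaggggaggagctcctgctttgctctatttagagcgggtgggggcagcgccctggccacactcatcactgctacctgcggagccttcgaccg
Cdx2: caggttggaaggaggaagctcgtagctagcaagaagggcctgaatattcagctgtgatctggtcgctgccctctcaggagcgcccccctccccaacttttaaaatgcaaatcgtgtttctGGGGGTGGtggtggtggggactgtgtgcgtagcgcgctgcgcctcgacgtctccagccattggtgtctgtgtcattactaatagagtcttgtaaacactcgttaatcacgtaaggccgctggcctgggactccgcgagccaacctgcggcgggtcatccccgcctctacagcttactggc
Hnf4a: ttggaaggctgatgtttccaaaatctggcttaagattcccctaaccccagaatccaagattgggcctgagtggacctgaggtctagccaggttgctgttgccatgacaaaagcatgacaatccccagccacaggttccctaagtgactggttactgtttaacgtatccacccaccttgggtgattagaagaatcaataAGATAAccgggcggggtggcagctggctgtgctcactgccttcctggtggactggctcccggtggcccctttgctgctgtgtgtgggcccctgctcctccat
The Cdx2 window held 1 match to the Krüppel-like consensus GGGNGTGG, which 17.6% of all 32851 windows hold. The Hnf4a window held 1 match to the GATA consensus AGATAA, which 11.2% of windows hold. A second Hnf4a start, at chr2:163546905-163547204, had none of the consensus sequences searched, and the 3′ counts cannot tell transcripts of the 2 starts apart. No match was found in these windows to AP-1 (TGANTCA, in 7.81% of windows), CDX (TTTATNG, 10.9%), TCF/LEF (ATCAAAG, 3.73%), HNF4 (CAAAGTCCA, 0.475%) or ETS (CCGGAAGT, 3.89%). A match describes the letters of the window and is not a binding site, and the absence of one says nothing about the factor. The Klf4 window had a GC content of 74.3%, against a median of 52.7% over all windows, and the other 3 windows shown had 54 to 59%.

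Cells were clustered without the 10 factors, so that their levels did not define the classes. The WT matrix held 1348 cells with a median of 1492 UMIs, and the ROBO matrix 1249 cells with a median of 1610. The classes were named from markers: stem cell-like (698 cells), TA-like (738), bottom, middle and top enterocyte-like (154, 411 and 224), secretory-like with goblet and Paneth genes (127), enteroendocrine-like (30) and immune-like (45). A cluster of 170 cells was left unnamed. Its leading genes, Cxcl10, Fosb and Atf3, are stress and immediate-early genes, and the 16 immediate-early genes of a list took 162 per 10000 UMIs there, against 31.3 to 79.2 in the stem cell-like, TA-like, enterocyte-like and secretory-like classes. The stem cell-like class joined a deep and a shallow cluster (medians of 2422 and 825 UMIs) and held 8 cells with fibroblast collagen genes. These clusters raised 9 and 5 of 20 stem markers, and the deep and shallow TA-like clusters 20 and 4 of 20 TA markers. In this order, Lgr5 had 1.15 and 1.14 UMIs per 10000 in the stem cell-like clusters, and 0.812 and 1.04 in the TA-like clusters. Ascl2 had 1.49 and 1.02, and 0.909 and 1.49. Axin2 had 4.72 and 5.58, and 2.68 and 4.36. Stem markers thus set the 2 classes apart only weakly. Immune genes took at most 0.605 per 10000 UMIs in any named epithelial class and 0.567 in the unnamed cluster. The immune-like cells gave the background for the factors: their levels ranged from 0 for Cdx2 to 1.45 for Hnf4a.

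**Figure D1:**
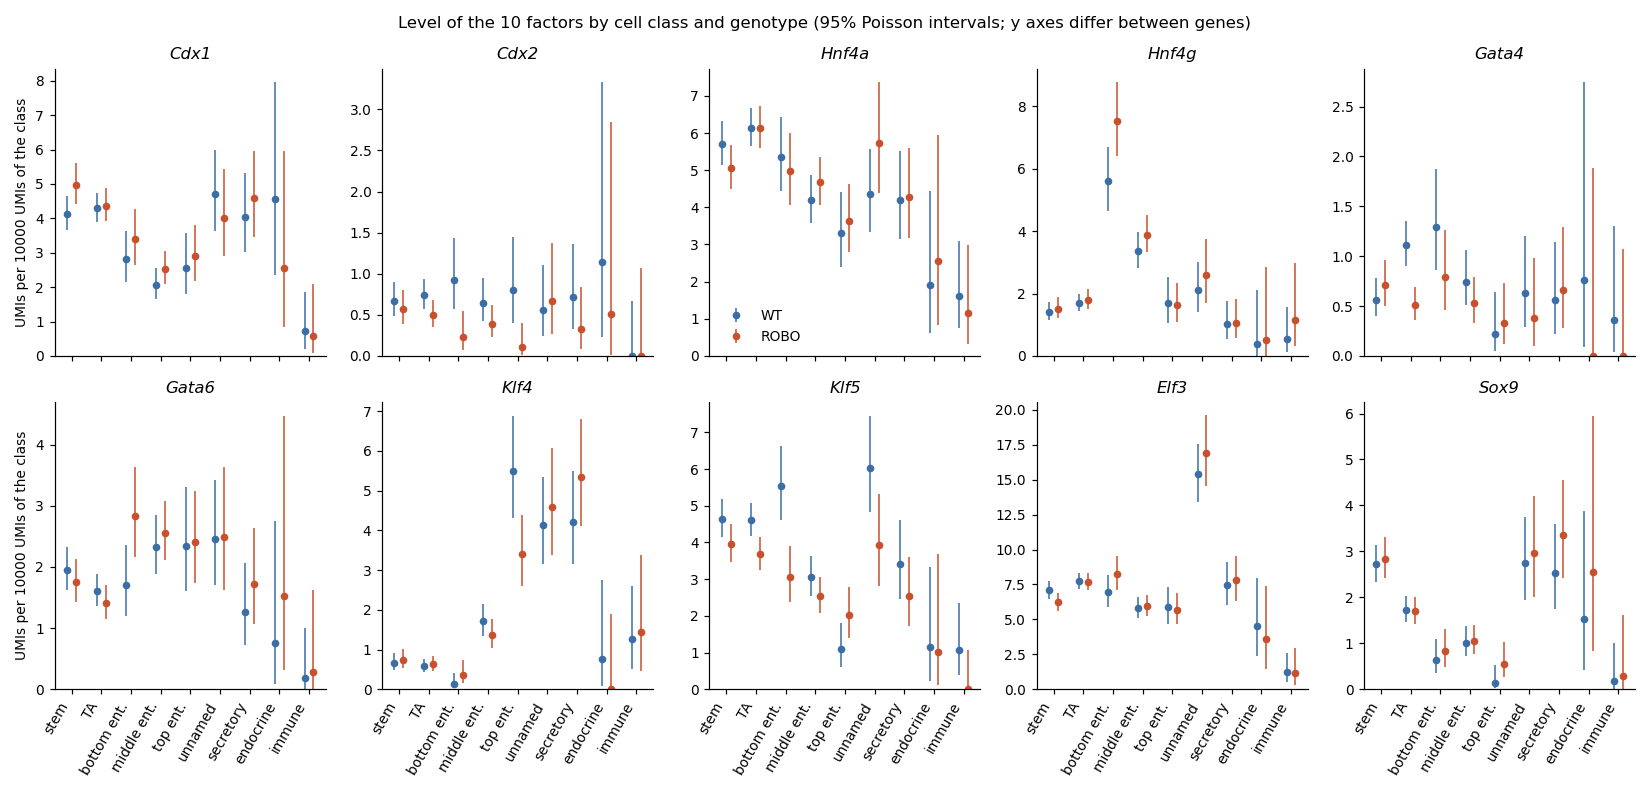
Level of each of the 10 factors, in UMIs per 10000 UMIs of the class, by cell class (x axis) in WT (blue) and ROBO (orange); points are pooled sums, bars 95% Poisson intervals, and y axes differ between genes. Klf4 is highest in top enterocyte-like, unnamed and secretory-like cells, Hnf4g in bottom enterocyte-like cells, Elf3 in the unnamed cluster, and Sox9 is lowest in top enterocyte-like cells.

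From the stem cell-like to the top enterocyte-like class the factors parted. Klf4 was 6.12-fold higher at the top, Sox9, Klf5, Gata4, Cdx1 and Hnf4a were lower, and the intervals of Cdx2, Hnf4g, Gata6 and Elf3 included 0. Of the 3182 genes with at least 100 UMIs over the 2 classes, 19.6% were called higher and 52.4% lower, and the median gene was lower by a log2 ratio of -0.68, so 1 higher and 5 lower of 10 members is close to this background. Of the 10 members, 8 had that many UMIs; Cdx2 and Gata4 did not. In the top class Apoa4, the main villus apolipoprotein, took 1514 of 10000 UMIs, against 14.2 in stem cell-like cells, which lowers the share left to every other gene. Scaled to the median gene, the split of calls turned to 4 higher and 2 lower (background 33.7% and 30%): Klf4 (log2 ratio 3.29), Gata6 (1.03), Hnf4g (0.85) and Elf3 (0.47) were higher, Klf5 (-0.74) and Sox9 (-2.19) lower, and Cdx1 (-0.04) and Hnf4a (0.04) did not depart from the median gene.

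The median gene moved less at the other steps, and the call rule was the same. From stem cell-like to TA-like cells, 2 members were higher and 2 lower (background 20.3% and 13.2%); to bottom enterocyte-like cells, 3 and 3 (27.6% and 21.8%); and to middle enterocyte-like cells, 3 and 5 (28.5% and 38.9%). The median gene's log2 ratio was 0.05, 0.04 and -0.16 at these steps. Each count was near the background, and the results lie in which factors moved and where.

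**Figure D2:**
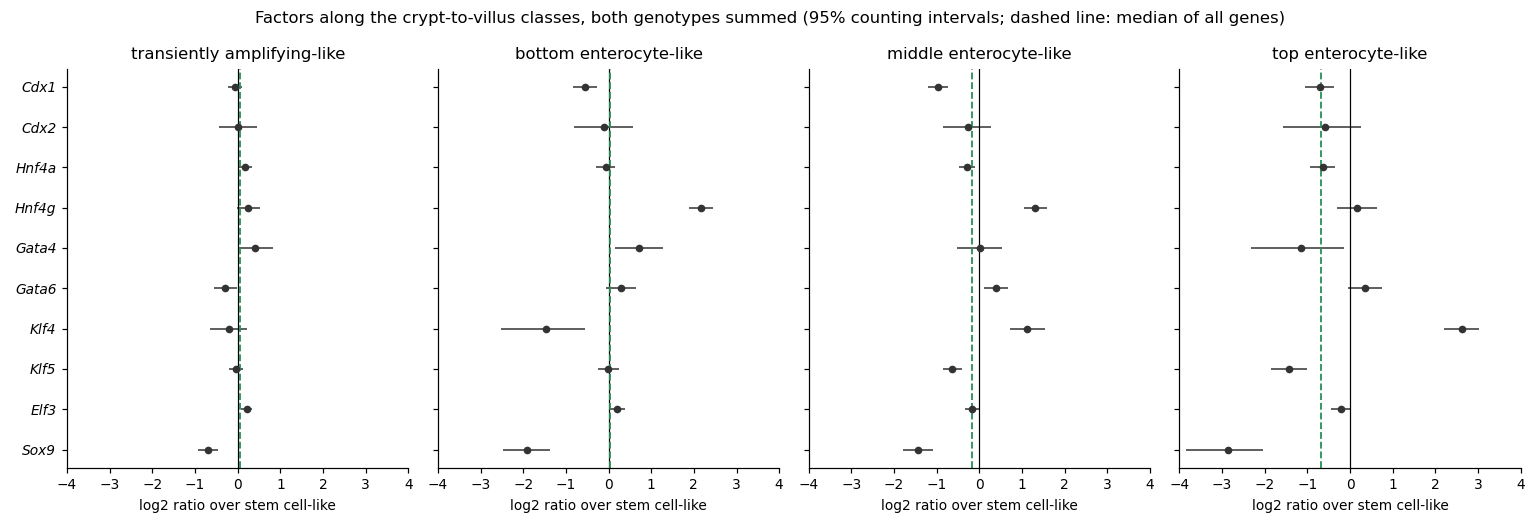
Log2 ratio of each factor's level in TA-like, bottom, middle and top enterocyte-like cells over stem cell-like cells, both genotypes summed; bars are 95% counting intervals, the solid line is 0 and the dashed line the median of all genes with at least 100 UMIs. Hnf4g lies furthest to the right in bottom enterocyte-like cells (2.16), Klf4 in top enterocyte-like cells (2.61), and Sox9 to the left at every step.

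The Hnf4 receptors followed different courses. Hnf4g had 1.47 UMIs per 10000 in stem cell-like cells (95% interval 1.26 to 1.70), 1.74 in TA-like cells, 6.56 in bottom (5.81 to 7.37), 3.64 in middle (3.24 to 4.06) and 1.65 in top enterocyte-like cells (1.23 to 2.16). Among these 5 classes its level was thus highest in bottom enterocyte-like cells, 4.47-fold above stem cell-like cells (3.70 to 5.42). The top level did not differ from that of stem cell-like cells, though scaled to the median gene it was called higher. The middle level joined 2 clusters, described below, at 5.18 (4.41 to 6.03) and 2.73 (2.31 to 3.21). The rise to the bottom class was seen in both genotypes: in WT the bottom level was 5.60 against 1.42 in stem cell-like cells, and in ROBO 7.52 against 1.52. Hnf4a varied less, from 6.14 in TA-like cells (5.76 to 6.52) over 5.41 in stem cell-like, 5.17 in bottom and 4.43 in middle to 3.49 in top enterocyte-like cells (2.86 to 4.20). Hnf4g made up 21.3% of the UMIs of the pair in stem cell-like cells (exact binomial interval 18.6 to 24.2%), 55.9% in bottom enterocyte-like cells (51.5 to 60.3%) and 32.1% in top enterocyte-like cells.

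The Krüppel-like pair crossed over along the villus. Klf4 had 0.704 UMIs per 10000 in stem cell-like cells (0.563 to 0.870), 0.609 in TA-like cells and 0.255 in bottom enterocyte-like cells (0.127 to 0.456), where 11 UMIs were counted in 154 cells. It then had 1.54 in middle (1.28 to 1.82) and 4.31 in top enterocyte-like cells (3.62 to 5.10). Klf5 had 4.32 in stem cell-like, 4.19 in TA-like and 4.31 in bottom enterocyte-like cells, which did not differ from each other, and then 2.79 in middle (2.45 to 3.17) and 1.62 in top enterocyte-like cells. Klf5 made up 94.4% of the pair's UMIs in bottom enterocyte-like cells (90.2 to 97.2%) and 27.3% in top enterocyte-like cells (21.0 to 34.3%). The levels of Klf4 in stem cell-like, TA-like and bottom enterocyte-like cells were not above that in immune-like cells (1.34, 0.690 to 2.33), which were themselves rich in immediate-early genes (94.0 per 10000). Expression and free RNA could therefore not be told apart by level in these 3 classes.

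**Figure D3:**
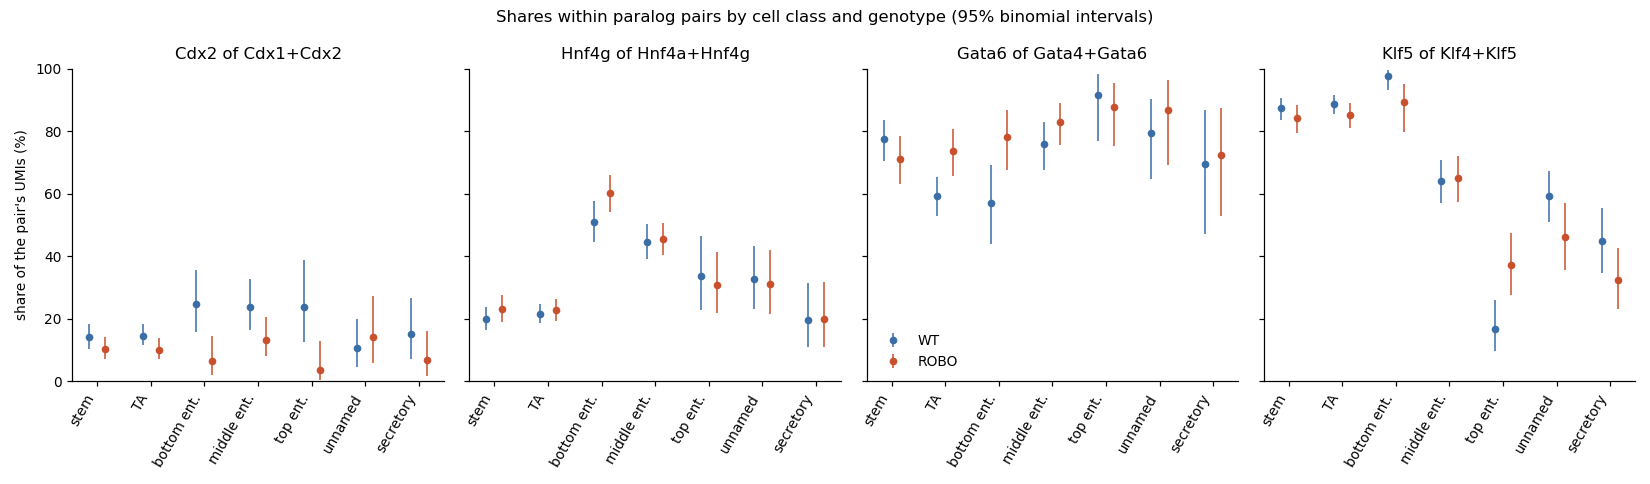
Share of a paralog pair's UMIs (y axis, %) that came from Cdx2, Hnf4g, Gata6 or Klf5, by cell class (x axis) in WT (blue) and ROBO (orange), with exact binomial 95% intervals. The share of Hnf4g is highest in bottom enterocyte-like cells, and the share of Klf5 is lowest in top enterocyte-like cells in WT (16.7%) and in secretory-like cells in ROBO (32.3%, beside 37.1% in top enterocyte-like cells).

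Sox9 had the steepest decline. Its level was 2.78 in stem cell-like cells (2.49 to 3.09), 1.71 in TA-like cells (1.52 to 1.92), 0.741 in bottom (0.507 to 1.05), 1.03 in middle (0.828 to 1.27) and 0.380 in top enterocyte-like cells (0.196 to 0.664). The top class held 12 Sox9 UMIs, 2 in WT and 10 in ROBO, and its interval overlapped that of the immune-like background (2 UMIs, 0.0270 to 0.804). The ratio of top over stem cell-like was -2.87 on the log2 scale (-3.84 to -2.04). In secretory-like cells Sox9 stood at 2.94 (2.31 to 3.70), level with the stem cell-like class.

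The caudal factors declined less. Cdx1 had 4.52 in stem cell-like and 4.33 in TA-like cells, then 3.10 in bottom (2.60 to 3.68), 2.31 in middle (2.00 to 2.66) and 2.76 in top enterocyte-like cells (2.21 to 3.40); the 3 enterocyte-like classes were each below stem cell-like cells. Cdx2 was sparse, with 294 UMIs in all epithelial-like cells, and ran from 0.627 in TA-like to 0.412 in top enterocyte-like cells (0.219 to 0.704). With both genotypes summed none of its ratios to stem cell-like cells left out 0, so a gradient of Cdx2 was not detectable at this depth. The log2 ratio of top over stem cell-like was -0.60, and its interval (-1.57 to 0.26) includes a decline as large as that of Cdx1. In ROBO alone, with 2 UMIs at the top, the ratio was -2.34 (-5.45 to -0.37), and in WT 0.26 (-0.84 to 1.24).

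The GATA factors also parted. Gata4 was highest in bottom enterocyte-like cells, at 1.04 (0.760 to 1.40), which did not differ from TA-like cells, at 0.838 (0.704 to 0.989). Stem cell-like cells had 0.631 (0.498 to 0.788). In top enterocyte-like cells Gata4 had 9 UMIs, a level of 0.285 (0.130 to 0.541). The bottom level was above stem cell-like cells in WT (2.29-fold, log2 interval 0.43 to 1.94). In ROBO alone the interval included 0 (1.12-fold, -0.75 to 1.01). The TA-like level was likewise above stem cell-like cells in WT (1.97-fold, 0.42 to 1.56) and not in ROBO (0.717-fold, -1.16 to 0.20). Gata6 was 1.86 in stem cell-like and 1.52 in TA-like cells, and 2.27, 2.45 and 2.38 in bottom, middle and top enterocyte-like cells. Only the middle class exceeded stem cell-like cells (log2 ratio 0.40, 0.12 to 0.68), and only TA-like cells lay below them (-0.29, -0.56 to -0.03). The top ratio, 0.35 (-0.04 to 0.74), was called higher under 7 of 14 alternatives. Gata6 made up 64.5% of the pair in TA-like cells (59.5 to 69.2%) and 89.3% in top enterocyte-like cells.

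Elf3 had the smallest range of levels of the 10 factors from crypt to villus. Its level was 6.68 in stem cell-like, 7.71 in TA-like, 7.62 in bottom, 5.90 in middle and 5.77 in top enterocyte-like cells, a range of 1.34-fold (1.14 to 1.57) between the highest and the lowest of these classes. The interval of this range overlapped those of Cdx2 (1.52-fold, 0.85 to 2.95), Gata6 (1.61-fold, 1.34 to 1.95) and Hnf4a (1.76-fold, 1.44 to 2.16). For Elf3, the TA-like and bottom classes were called higher than stem cell-like cells (log2 ratios 0.21 and 0.19) and the middle class lower (-0.18). The unnamed cluster stood apart, with 16.0 (14.5 to 17.7), 2.40-fold above stem cell-like cells, at 15.4 in WT and 16.9 in ROBO. In that cluster 3 members were called higher than in stem cell-like cells and none lower (background 19.8% and 24.8%): Elf3, Klf4, at 4.33 (3.55 to 5.23), and Hnf4g, at 2.31 (1.75 to 2.99).

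Because that cluster was rich in immediate-early genes, the cells of each class were split into 4 equal groups by their immediate-early UMIs per 10000. Within TA-like cells, Elf3 had 4.78 in the lowest group, 6.32 and 9.20 in the next, and 11.3 in the highest. Elf3 was higher in the highest than in the lowest group in stem cell-like, TA-like, bottom and middle enterocyte-like cells, and not in top enterocyte-like cells (5.60 and 5.56). Klf4 was higher in the highest group in stem cell-like (1.73 against 0.399), TA-like (1.55 against 0.116), middle (3.13 against 0.796) and top enterocyte-like cells (7.57 against 2.07). In the lowest groups, with 3.83 immediate-early UMIs per 10000 in stem cell-like and 5.60 in top enterocyte-like cells, Klf4 still stood at 0.399 (0.223 to 0.658) and 2.07 (1.21 to 3.31). Klf5 and Sox9 were higher in the highest group in stem cell-like cells (log2 ratios 0.54 and 0.71) and TA-like cells (0.35 and 0.63), and Sox9 also in bottom enterocyte-like cells (1.59 against 0.269). Gata6 was higher in the highest group in stem cell-like (0.89, 0.31 to 1.47) and TA-like cells (0.64, 0.10 to 1.19) and lower in top enterocyte-like cells (-1.24, -2.51 to -0.11), and Hnf4g was higher in TA-like cells (0.65, 0.15 to 1.16). Cdx1, Cdx2, Hnf4a and Gata4 had intervals that included 0 in all 5 classes. Depth moved as well, with medians of 2064 and 924.5 UMIs per cell in the lowest and highest groups of stem cell-like cells. No share of all genes called between these groups is given, so the calls have no background to be set against. The part of the dissociation, of depth and of cell state in these differences was not tested.

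**Figure D4:**
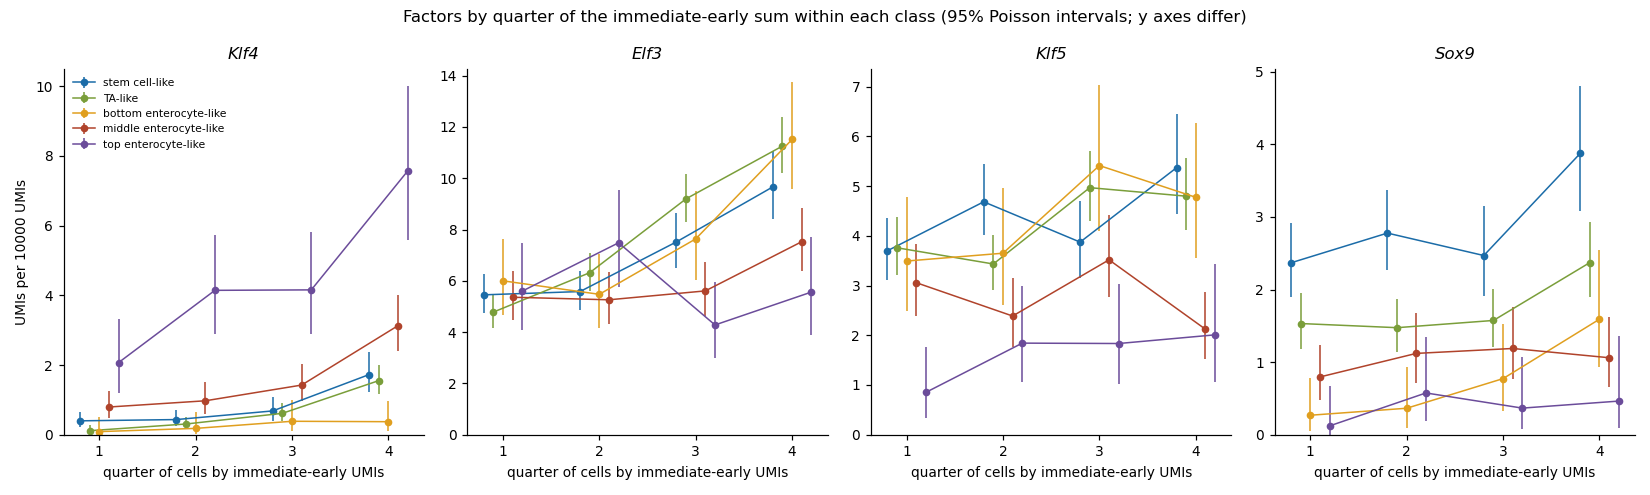
Levels of Klf4, Elf3, Klf5 and Sox9, in UMIs per 10000, in 4 groups of cells ordered by immediate-early UMIs (x axis, lowest at left) within each class (colours), with 95% Poisson intervals; y axes differ between genes. Klf4 in top enterocyte-like cells lies above the other classes in every group, and Elf3 climbs from left to right in TA-like cells from 4.78 to 11.3.

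The middle enterocyte-like class joined 2 clusters that differ in the genes of milk and solid diets. One was led by Cubn, an endocytic receptor of the suckling gut, and had 42.7 UMIs per 10000 of the lactase gene Lct, against 25.4 in the other. The other was led by Sis, sucrase-isomaltase, with 23.0 UMIs per 10000 against 0.149, and also held more of the disaccharidase gene Mgam (17.6 against 2.66). Hnf4g was higher in the Sis-led cluster, at 5.18 (4.41 to 6.03) against 2.73 (2.31 to 3.21), while Sox9 (0.318 against 1.45), Cdx1 (1.68 against 2.68) and Hnf4a (3.37 against 5.06) were lower. One higher and 3 lower of 10 members compares with 26.3% and 23.8% of 1649 genes. Hnf4g took 60.6% of the pair's UMIs in the Sis-led cluster (54.5 to 66.5%) and 35.1% in the Cubn-led cluster (30.5 to 39.9%). Klf4, Klf5, Gata4, Gata6, Cdx2 and Elf3 did not differ beyond counting error.

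Among secretory-like cells, which lead with the goblet gene Zg16 and hold Paneth defensins, Klf4 had 4.76 UMIs per 10000 (3.94 to 5.70), 6.76-fold above stem cell-like cells. It was 4.21 in WT and 5.33 in ROBO, against 0.672 and 0.742 in their stem cell-like cells. Klf5 (2.99) and Hnf4a (4.24) were lower than in stem cell-like cells, which makes 1 higher and 2 lower members against a background of 10.8% and 28.2%. The level of Klf4 in secretory-like cells did not differ from that in top enterocyte-like or unnamed cells.

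The 2219 stem cell-like, TA-like and enterocyte-like cells were also ranked by villus landmark genes over villus plus crypt landmarks. This second measure of position did not use clusters to order the cells, but the cells ranked were chosen by class. The cells were cut into 6 bins, with median villus shares of 13.3, 33.3, 57.1, 91.1, 99.5 and 100%. Sox9 went from 2.86 to 2.22, 1.70, 1.24, 0.894 and 0.873 along the bins. Hnf4g went from 0.867 to 1.29, 1.91 and 4.33, and then to 3.63 and 2.99. In WT alone its level was 3.46 (2.94 to 4.05) in the fourth bin and 3.72 (3.16 to 4.35) in the fifth, and in ROBO 5.43 and 3.55. Klf4 stayed between 0.471 and 0.816 in the first 4 bins and reached 1.90 and 2.27 in the last. Between the first and the last bin Hnf4g and Klf4 were higher and Sox9, Hnf4a and Cdx1 lower, 2 and 3 of 10 members against 26.1% and 42.7% of genes. Klf5 had 3.29 in the first and 3.44 in the last bin, and its ratio turned negative with 4 bins or with cells of at least 20 landmark UMIs. Cells tied at 100% were ordered by depth, so the last bin held shallow cells (median 968 UMIs, against 2168 in the bin before) and 12.5% of its cells were stem cell-like and 15.7% TA-like.

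Single cells rarely showed more than a few of the factors. After each cell was thinned to 912 UMIs, which left out 364 WT and 285 ROBO cells, a mean of 2.05 of the 10 factors had a UMI per epithelial-like cell and 90.0% of cells had at least 1 (88.5 to 91.3%), against 0.556 factors and 38.9% in immune-like cells (14 of 36, 23.1 to 56.5%). Without thinning, at medians of 1545 and 1750 UMIs, the means were 3.17 and 0.822. Elf3 had a UMI in 46.0% of thinned epithelial-like cells (43.8 to 48.3%), against 11.1% of immune-like cells (unthinned 61.8 and 13.3%). Sox9 was found in 21.3% of stem cell-like cells (17.7 to 25.3%) and 2.58% of top enterocyte-like cells (0.708 to 6.48%), and in 0 of 36 immune-like cells, a count that allows up to 8.33%; unthinned, the shares were 31.5, 4.91 and 4.44%. Klf4 was found in 24.5% of top enterocyte-like cells (18.0 to 32.1%), in 8.33% of immune-like cells (1.75 to 22.5%) and in 5.86% of stem cell-like cells, which is not above that background. Unthinned, these shares were 32.6, 17.8 and 9.46%, so the share in top enterocyte-like cells overlaps the background interval at either depth, while its level does not.

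Between genotypes, 3 factors were lower and 1 was higher in the ROBO matrix over all epithelial-like cells. Of the 7355 genes with at least 100 UMIs, 8.92% were called lower and 8.32% higher. Cdx2 was lower, with 105 UMIs in ROBO and 189 in WT, levels of 0.439 and 0.720 and a log2 ratio of -0.71 (-1.07 to -0.36). Gata4 was lower, at 0.568 against 0.830 (-0.55, -0.87 to -0.23). Klf5 was lower, at 3.29 against 4.26 (-0.37, -0.51 to -0.24). Hnf4g was higher, at 2.60 against 2.19 (0.25, 0.08 to 0.42). Cdx2 alone passed 1.5-fold, as did 1.55% of genes downward and 1.17% upward. Cdx1, Hnf4a, Gata6, Klf4, Elf3 and Sox9 had log2 ratios between -0.03 and 0.10 with intervals that included 0, and those of Elf3 (-0.13 to 0.06) and Hnf4a (-0.14 to 0.08) were the narrowest. These intervals describe 2 pools of cells, so differences between mice or cartridges cannot be told apart from a difference between genotypes.

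**Figure D5:**
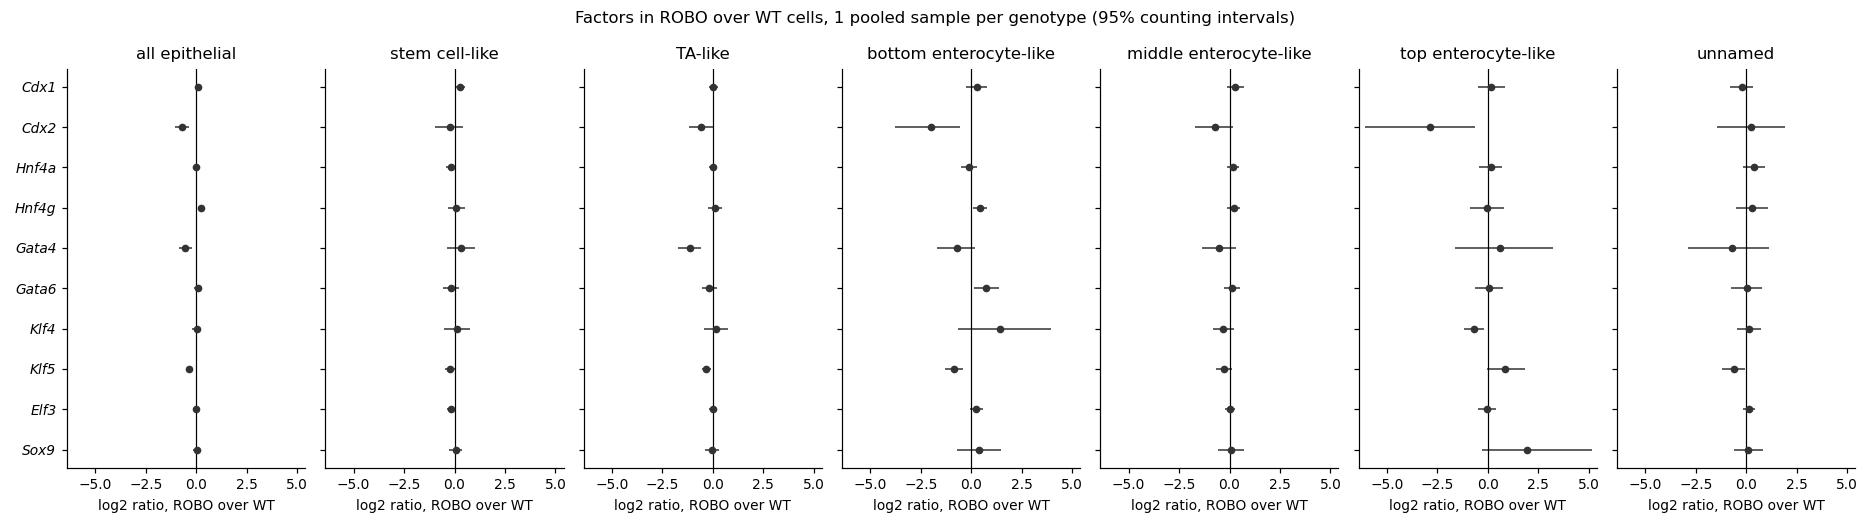
Log2 ratio of each factor's level in ROBO over WT cells, over all epithelial-like cells and within classes, with 1 pooled sample per genotype and 95% counting intervals. Over all epithelial-like cells Cdx2, Gata4 and Klf5 lie left of 0 and Hnf4g right of 0; within classes Cdx2 lies furthest left in bottom and top enterocyte-like cells.

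The level of Cdx2 was lower in ROBO in all 5 classes from crypt to villus, and in 10 of 11 epithelial clusters. Intervals left out 0 in 2 of the classes and 2 of the clusters. The Sis-led middle enterocyte-like cluster had 6 Cdx2 UMIs in each genotype (log2 ratio -0.07). Classes and clusters are parts of the same 2 pools and are not repeats, and no such count over all genes is given. Cdx2 was 0.565 in ROBO and 0.672 in WT stem cell-like cells, 0.493 and 0.737 in TA-like cells, and 0.389 and 0.650 in middle enterocyte-like cells, with intervals that included 0. In bottom enterocyte-like cells ROBO had 5 UMIs and WT 20 (0.232 and 0.925, log2 ratio -1.99, -3.76 to -0.54), and in top enterocyte-like cells 2 and 11 (0.112 and 0.806, -2.85, -6.07 to -0.66). Its paralog Cdx1 ran the other way in the same 5 classes and was called higher in stem cell-like cells, at 4.98 against 4.12 (log2 ratio 0.27, 0.03 to 0.52). Fibroblast genes took 15.5 per 10000 UMIs in ROBO and 5.76 in WT stem cell-like cells, and their part in that difference was not tested; over all epithelial-like cells the ratio of Cdx1 was 0.10 with and without the 8 cells that hold collagen genes. Cdx2 therefore made up 9.96% of the pair's UMIs in ROBO (8.22 to 11.9%) and 16.3% in WT (14.2 to 18.5%). After thinning, the shares of epithelial-like cells with a Cdx2 UMI were 4.43 and 5.60%, with 42 and 54 cells, and unthinned they were 7.56 and 12.4%.

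Klf5 was lower in ROBO in 4 of the 5 classes and in 9 of 11 clusters, all parts of the same 2 pools. Among the clusters, 4 had intervals that left out 0. The intervals left out 0 in TA-like cells, at 3.68 against 4.62 (log2 ratio -0.33), in bottom enterocyte-like cells, at 3.06 against 5.55 (-0.86, -1.31 to -0.41), and in the unnamed cluster, at 3.92 against 6.04 (-0.62, -1.20 to -0.07). In top enterocyte-like cells the values went the other way, with 36 UMIs in ROBO and 15 in WT (2.01 and 1.10, log2 ratio 0.87, -0.03 to 1.85). Klf4 was lower there, at 3.41 against 5.49 (-0.69, -1.20 to -0.18), so that Klf5 took 37.1% of the pair's UMIs in ROBO (27.5 to 47.5%) and 16.7% in WT (9.64 to 26.0%). Klf4 did not differ over all epithelial-like cells. In the last landmark bin Klf5 was lower in ROBO, at 2.05 (1.47 to 2.80) against 4.75 (3.86 to 5.79). That bin held 7.95% stem cell-like cells in ROBO and 16.6% in WT, and the part of this make-up in the difference was not tested.

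Gata4 was called lower in ROBO in TA-like cells, where ROBO had 38 UMIs and WT 101, levels of 0.507 and 1.11 and a log2 ratio of -1.13 (-1.71 to -0.58). In bottom and middle enterocyte-like cells the log2 ratios were -0.71 and -0.50, with intervals that included 0. In stem cell-like cells the level was 0.706 in ROBO and 0.565 in WT, with an interval that included 0 (-0.36 to 1.01). Gata4 is a marker of the proximal gut. Over all epithelial-like cells, none of the 7 other genes of a proximal list was lower in ROBO. Apoa4 had 194.6 against 162.9 per 10000, Fabp1 16.9 against 15.2, Lct 11.6 against 10.7 and the iron exporter gene Slc40a1 2.23 against 1.79. Adh6a, Cybrd1 and Cyp2b10 had intervals that included 0. Within classes the sum of these 7 genes was lower in ROBO in TA-like cells (23.2 against 25.3). It was also lower in stem cell-like (18.4 against 19.2), bottom (51.4 against 55.1) and top enterocyte-like cells (1489 against 1714). The same held in secretory-like (9.92 against 22.5) and enteroendocrine-like cells (7.65 against 15.2). It was higher in middle enterocyte-like cells (482 against 464) and the unnamed cluster (271 against 208). Over all epithelial-like cells this sum was 228 in ROBO and 193 in WT, most of it Apoa4. A distal list took 11.2 per 10000 UMIs in ROBO and 9.91 in WT, with Clec2h at 6.12 against 5.13 (log2 ratio 0.25, 0.15 to 0.36). Of that list, Fabp6 had 0 UMIs in ROBO and 2 in WT, and Slc10a2 had 0 in both. The crypt isolation protocol takes the duodenum and jejunum. The part of gut region in the Gata4 difference was not tested. Gata6 was higher in ROBO in bottom enterocyte-like cells, at 2.83 against 1.71 (log2 ratio 0.73, 0.11 to 1.36).

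Hnf4g was higher in ROBO in bottom enterocyte-like cells, at 7.52 against 5.60 (log2 ratio 0.43, 0.08 to 0.78), and in the fourth landmark bin, at 5.43 (4.69 to 6.26) against 3.46 (2.94 to 4.05). That bin held 27.9% bottom enterocyte-like and 27.3% TA-like cells in ROBO and 20.2% and 37.9% in WT, and the part of this make-up in the difference was not tested. In stem cell-like, TA-like, middle and top enterocyte-like cells its intervals included 0. In all, 2 members were called higher and 2 lower in ROBO bottom enterocyte-like cells (background 12.4% and 15.7%), 0 and 2 in TA-like cells (10.6% and 10.5%), 1 and 0 in stem cell-like cells (4.42% and 4.81%), 0 and 2 in top enterocyte-like cells (8.23% and 5.49%), 0 and 1 in the unnamed cluster (11.9% and 8.47%), and none in middle enterocyte-like cells (5.82% and 6.55%). By size alone, with sparse factors included, the factors at least 1.5-fold higher and lower numbered 2 and 3 in bottom enterocyte-like cells (4.74% and 7.87% of genes), 0 and 1 in TA-like cells (3.17% and 3.75%), 0 and 0 in stem cell-like cells (1.06% and 1.6%), 3 and 2 in top enterocyte-like cells (4.24% and 2.74%), 0 and 2 in the unnamed cluster (5.82% and 3.97%), and 0 and 1 in middle enterocyte-like cells (1.33% and 1.58%). All these shares are of genes with at least 100 UMIs in the class. Only 5 of the 10 factors had that many in bottom, 3 in top and 7 in middle enterocyte-like cells. Over all epithelial-like cells the shares past 1.5-fold were 1.17% and 1.55% with this minimum and 13.5% and 14.8% without it. The counts by size that include sparse factors are therefore not comparable with these shares. When every class was given the same weight in both genotypes, the log2 ratios were -0.67 for Cdx2, -0.46 for Gata4, -0.31 for Klf5 and 0.18 for Hnf4g. Immediate-early genes took 44.3 per 10000 UMIs in ROBO and 44.2 in WT epithelial-like cells. Within classes their level was lower in ROBO top enterocyte-like cells (37.97 against 44.76) and higher in ROBO TA-like cells (39.67 against 34.14). It was also lower in stem cell-like, bottom enterocyte-like, secretory-like and enteroendocrine-like cells, and higher in middle enterocyte-like cells and the unnamed cluster. Its part in the lower Klf4 level of ROBO top enterocyte-like cells was not tested.

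By class, each genotype alone gave the same directions for Klf4, Klf5 and Sox9. From stem cell-like to top enterocyte-like cells, Klf4 had log2 ratios of 3.03 in WT (2.48 to 3.60) and 2.20 in ROBO (1.61 to 2.80), Klf5 -2.08 (-2.93 to -1.33) and -0.98 (-1.53 to -0.46), and Sox9 -4.21 (-7.27 to -2.34) and -2.35 (-3.44 to -1.43). All 3 ratios were smaller in size in ROBO, and each pair of intervals overlapped. Calls numbered 1 higher and 4 lower in WT (background 18.2% and 54%) and 1 and 5 in ROBO (22.2% and 52.2%).

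Genes of the absorptive programme, several of them known targets of these factors, were read from a list. Of 32 listed, all 28 with enough UMIs were higher in middle enterocyte-like than in stem cell-like cells, with a median log2 ratio of 3.46, against 28.5% of all genes. In bottom enterocyte-like cells 18 of 24 were higher (27.6% of all genes), and at the top 20 of 23 were higher and Mgam was lower (19.6% and 52.4% of all genes). Apoa4 had a log2 ratio of 4.68 and Fabp2, a fatty acid-binding protein gene, of 4.23 at the middle step. Apoa1, Fabp2 and Mgam were among the markers that named the middle class, and Apoa4 among those of the top class. Unlike the 10 factors, the listed genes were not left out of clustering. Their counts at these steps were therefore in part fixed in advance. Over all epithelial-like cells, 14 of 28 were higher and 2 lower in ROBO, with a median log2 ratio of 0.14. Of all genes, 8.32% were called higher and 8.92% lower. These shares are not matched for UMI number, and a counting interval narrows as UMIs rise. Apoa4, with 46585 UMIs in ROBO and 42776 in WT, was called at a log2 ratio of 0.26. Apoa1 had 83.4 against 65.0 per 10000 and Fabp2 29.1 against 22.5. ROBO also held more top enterocyte-like cells, 123 of 1249 cells (9.85%) against 101 of 1348 in WT (7.49%), and the part of this in the difference was not tested.

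Of 38 other epithelial transcription factors, 7 of 20 with enough UMIs were higher and 9 lower in bottom enterocyte-like than in stem cell-like cells (27.6% and 21.8% of all genes), and 5 of 19 higher and 10 lower in top enterocyte-like cells (19.6% and 52.4%). Creb3l3, a lipid-metabolism factor whose gene was among the markers that named the top class, had 13.2 UMIs per 10000 at the top against 0.917 in stem cell-like cells. Maf, a factor of differentiating enterocytes, had 6.24 against 2.55. The Notch target Hes1 (0.760 against 4.05) and the BMP targets Id1 (1.65 against 3.87) and Id3 (2.09 against 5.93) were lower at the top. Between genotypes, 4 of 32 were higher and 2 lower in ROBO (8.32% and 8.92% of all genes), with a median log2 ratio of 0.00; Id3 had 4.17 against 3.52, and the nuclear receptor Esrra 3.04 against 3.40.

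Over 23 units of a cluster in a genotype, each with at least 20000 UMIs, the genes with the pattern most like Hnf4g were Acadl (Pearson r = 0.93), Ldha (0.92) and Ces2e (0.90), among 2113 genes with at least 500 UMIs. Those most like Klf4 were Guca2a (0.77), Stxbp2 (0.76) and Prkcd (0.69), and those most like Sox9 were Rnf43 (0.85), Smarca4 (0.83) and Aqp1 (0.83). For Gata6 the nearest gene was Gpa33 (0.95), for Klf5 Atp9a (0.93), for Cdx1 Plekha6 (0.92), for Hnf4a Poldip2 (0.91), for Elf3 Mapk13 (0.91), for Gata4 Ndufa9 (0.90) and for Cdx2 Baiap2l2 (0.84). The units share their genotype's libraries and differ in depth, and the correlation is across clusters, so the values describe likeness and carry no test.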

How the data were processed

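Crypt isolates of 8 WT and 8 ROBO labelled samples were dissociated, cleared of dead cells, captured on a Bio-Rad ddSEQ isolator and made into SureCell 3′ libraries. Count matrices came from BaseSpace, and the authors deposited them as raw UMI counts without normalization, 1 matrix per genotype; the processing notes name the builds mm10 and GRCm38, and the aligner, annotation and rule for calling cells are not given in the sources used here. Every value was a whole number. Total counts were 2682127 UMIs in WT and 2428435 in ROBO, with 463 to 13756 UMIs per cell. The depth limits factors below about 100 UMIs per comparison.

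Cells were clustered with Seurat 5.3.0 in R 4.3.3 (log-normalized counts, S and G2M scores regressed out, 2000 variable genes, 20 principal components, resolution 0.8), with the 10 factors left out of the variable genes. A cluster took the marker list with the highest mean log2 fold (levels plus 0.1) among lists of which at least 3 markers were raised 1.5-fold and found in 10% of its cells; it stayed unnamed where no marker of that list was among its 10 leading genes. This scoring rule was set after the clusters were seen. Scrublet in scanpy 1.11.5 marked 2 WT and 4 ROBO cells as doublets, which were kept except in an alternative; so low a share of marked cells means that doublets may remain. Levels have exact Poisson intervals, ratios conditional exact binomial intervals, and shares exact Clopper-Pearson intervals, all at 95%, from scipy 1.17.1. Intervals of class-weighted ratios are normal approximations on the log scale. The ratio step was tested on simulated data. For a count of 0 the limit is that of 3 counts. Landmark lists held 20 villus and 17 crypt genes and no factor. Genes named are the 10 factors, up to 6 genes of most UMIs from each other list, the 3 genes most alike to a factor, and genes that lead or describe a cluster, with the proximal list; Mgam was chosen after its values were seen.

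The factors and gene lists were chosen with earlier results of these data known. Alternatives covered clustering, doublets, scaling, weighting of cells, bins, landmarks, thinning and immediate-early cells. No column was left unused.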

Additional observations from a re-analysis of the deposited data

How the results depend on the processing

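No paired analysis was possible because the cells of a genotype stand in 1 matrix and could not be assigned to the numbered samples; for the same reason no replicate could be left out in turn. Over 15 alternatives the 3 members lower in ROBO stayed 3, with log2 ratios of -0.85 to -0.60 for Cdx2, -0.58 to -0.40 for Gata4 and -0.40 to -0.31 for Klf5, and Hnf4g ran from 0.18 to 0.28. The members higher in ROBO became 2 with each cell given the same weight, with class weights, and without the clusters led by Rn45s and by Cxcl10, where Cdx1 was also called. Over 14 alternatives Klf4, Klf5 and Sox9 kept their direction and call in top over stem cell-like cells, while Gata4 did so in 10, Gata6 in 7 (range 0.09 to 1.03) and Elf3 in 6 (-0.47 to 0.47), and the last-over-first ratio of Gata6 in 2 of 5 (up to 1.00). The members higher at the top became 4 with median-of-ratios scaling, and 2 with the members kept in clustering, without cell-cycle regression, with 10 principal components, with cells of at least 500 genes, without doublets, without the 25% of cells richest in immediate-early genes, and with stem cell-like cells of the deep cluster only. With median-of-ratios scaling the members lower became 2, the most in any alternative being 6, and Hnf4a (0.042) and Elf3 (0.47) changed sign, by construction, since it sets the median gene to 0. The last-over-first ratio of Klf5 was -0.38 with 4 bins and -0.50 with cells of at least 20 landmark UMIs; the cause was not tested. The share of epithelial-like minus immune-like cells with a Klf4 UMI was -0.77 percentage points without thinning and -0.26 at 1550 UMIs. The alternatives that used the deep cluster only, or left out cells with fibroblast genes or whole clusters, were chosen after seeing the data. Counting genes with at least 20 UMIs, or any, in place of 100 moved the genes higher at the top from 624 to 1201 and 1426, and those lower from 1668 to 3376 and 3435. Depth limits Cdx2 and Gata4 most, and no interval covers the spread between mice.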

Other observations

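Enteroendocrine-like cells numbered 30. Hnf4a had 2.18 UMIs per 10000 there, against 5.41 in stem cell-like cells, Klf5 1.09 against 4.32 and Elf3 4.14 against 6.68, each with an interval that left out a log2 ratio of 0. Sox9 had 9 UMIs. No genotype difference was detectable at this depth.

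Within the stem cell-like class, calls between genotypes differed between its shallow and deep clusters. No share of all genes called is given for single clusters. In the shallow cluster Hnf4a was 3.54 in ROBO and 6.62 in WT, with a log2 ratio of -0.90 (-1.39 to -0.43), and Cdx1 was 6.26 against 4.51 (0.48, 0.04 to 0.91). In the deep cluster Elf3 was 5.07 in ROBO and 6.53 in WT (-0.36, -0.63 to -0.10). The other factors were called in neither cluster. In the joint class Cdx1 was also called higher, and Hnf4a and Elf3 were not called. In the Sis-led middle enterocyte-like cluster Klf4 was 0.868 against 2.08 (-1.26, -2.28 to -0.32) and Klf5 1.98 against 3.39 (-0.77, -1.45 to -0.11). In the shallow cluster of TA-like cells, led by the ribosomal RNA gene Rn45s, none of the 10 factors was called.

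The 8 cells with at least 5 UMIs of fibroblast genes, 4 of each genotype and all in the stem cell-like class, held 7 Gata6 and 4 Klf4 UMIs and no UMI of Cdx2, Hnf4g, Gata4, Klf5 or Elf3. Fibroblast genes were higher in ROBO epithelial-like cells, with 180 Dcn UMIs against 55 in WT and 34 Mgp UMIs against 1. Their part in the genotype differences within the stem cell-like class was not tested.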
